A study of Arabidopsis thaliana with 4 samples.

Results

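The 6 plastid genes for subunits of the cytochrome b6f complex (petA, petB, petD, petG, petL and petN) and rbcL, the plastid gene for the large subunit of Rubisco, are described here in Arabidopsis thaliana. They were taken by symbol from the genes that the TAIR10.1 gene table places on the plastid chromosome. Each has 1 probe set, so the 7 genes are 7 of the 69 plastid protein genes with a named probe set and 7 of 22810 probe sets on the array. The data are 4 Affymetrix ATH1 arrays, hybridized with dehydration polysomal, dehydration non-polysomal, non-stress polysomal and non-stress non-polysomal RNA, 1 array to a group. Polysomal RNA is defined by the labels as carrying more than 1 ribosome, and non-polysomal RNA as free or carrying 1 ribosome. The labels name no genotype, tissue, age or length of dehydration.

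The cytochrome b6f complex carries electrons from plastoquinol to plastocyanin between the photosystems and pumps protons into the thylakoid lumen. petA encodes cytochrome f, petB cytochrome b6 and petD subunit IV, and petG, petL and petN encode very small membrane subunits. The Rieske iron-sulphur subunit and PetM are encoded in the nucleus. Rubisco fixes carbon dioxide, and its plastid-encoded large subunit assembles with small subunits made in the cytosol. Plastid mRNAs are translated by bacterial-type ribosomes inside the plastid, are often transcribed as polycistronic units, and mostly lack stable poly(A) tails.

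All 7 probe sets passed the filter on dim signals, and their signals, from 1503 to 21830, lay far above the lower limit of 69.9 placed on the arrays. Because the arrays share the same trimmed mean signal, a polysomal ratio (polysomal over non-polysomal signal) tells how a transcript stands against the bulk of the transcripts and cannot be read as the fraction of it bound to polysomes. With 1 array per group no difference could be tested, and a difference of at least 2-fold is used as a size to count. As a yardstick that does not replace replicates, paired probe sets for 47 loci gave an SD of their difference that was 0.502 for the log2 ratio under dehydration, 0.606 for that without stress and 0.598 for the change of ratio. It was 0.435 for the dehydration effect in polysomal RNA and 0.477 for that in non-polysomal RNA. The labels do not state how RNA was primed for labelling, and fewer plastids per cell and less RNA per plastid cannot be told apart. Both dehydration arrays were hybridized on a different day from both non-stress arrays, per the file headers, so day and dehydration cannot be told apart, while either polysomal ratio lies within 1 day.

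petA had signals of 14173 in dehydration polysomal and 10696 in dehydration non-polysomal RNA, and of 13946 in non-stress polysomal and 7661 in non-stress non-polysomal RNA. Both polysomal signals lay above both non-polysomal ones, an order that no other member showed. The log2 ratio of polysomal to non-polysomal signal was 0.41 under dehydration and 0.86 without stress, positive under each of 4 other scalings too.

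petB had signals of 20028 in dehydration polysomal and 21391 in dehydration non-polysomal RNA, and of 16415 in non-stress polysomal and 21830 in non-stress non-polysomal RNA. The non-stress polysomal array stood lowest, and the other arrays lay close together. Its log2 ratio was -0.10 under dehydration and -0.41 without stress, each smaller than the yardstick SD. The ratio under dehydration turned positive under median, hybridization control and plastid gene scaling, and that without stress under hybridization control scaling.

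petD had signals of 3218 in dehydration polysomal and 3696 in dehydration non-polysomal RNA, and of 1898 in non-stress polysomal and 4507 in non-stress non-polysomal RNA. The arrays stood in the same order as for petB, but the non-stress polysomal signal was set apart from the next by 0.76 on the log2 scale. The log2 ratio was -0.20 under dehydration, or 0.06 under median scaling. Without stress it was -1.25, so that petD was 2.37-fold lower in polysomal RNA, and it was negative under all scalings tried (-1.44 to -0.77).

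**Figure D1:**
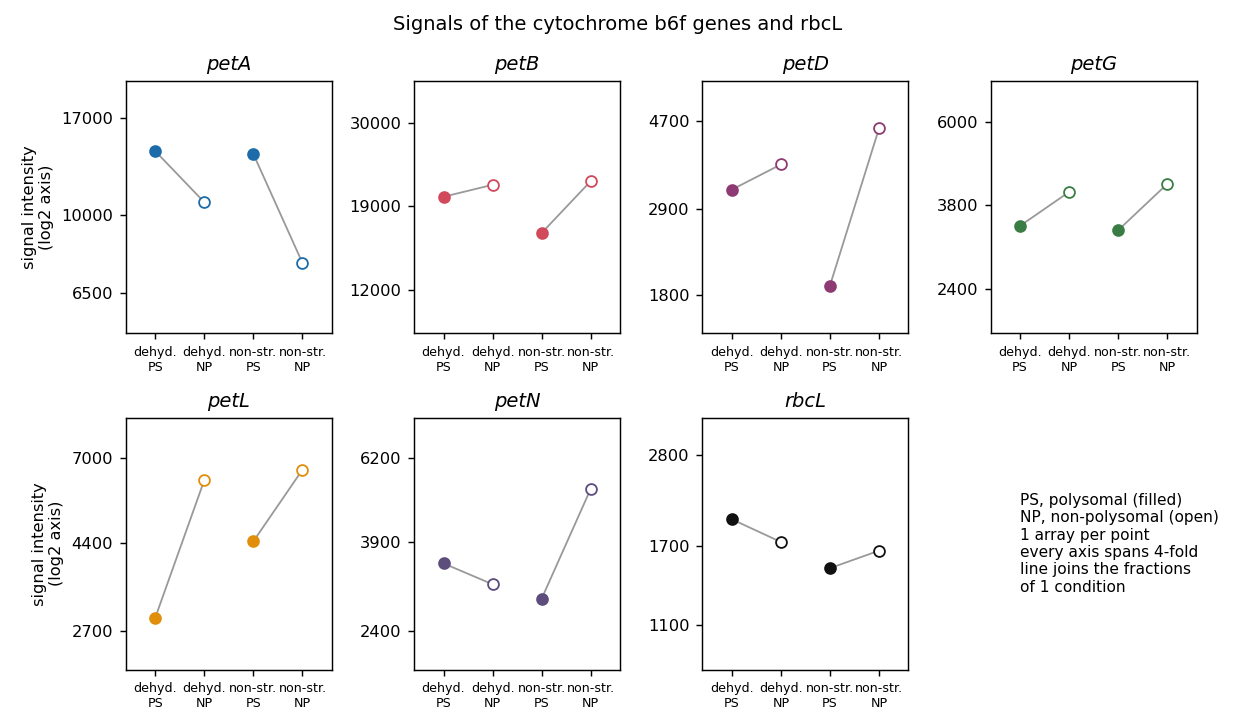
Deposited signal intensity (log2 axis, each spanning 4-fold) of the 7 genes on the 4 arrays, with polysomal RNA filled, non-polysomal RNA open, and a line joining the fractions of 1 condition. Both polysomal points of petA lie above its non-polysomal points, petL is lowest in dehydration polysomal RNA (2911) and petD is lowest in non-stress polysomal RNA (1898).

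The small subunit genes did not share a pattern. petG, whose product is needed for the complex to accumulate in tobacco, had 3397 in dehydration polysomal and 4094 in dehydration non-polysomal RNA, and 3317 in non-stress polysomal and 4279 in non-stress non-polysomal RNA. It was lower in both polysomal signals than in both non-polysomal ones, by a log2 ratio of -0.27 under dehydration and -0.37 without stress, and the second turned positive under median and hybridization control scaling. The whole span over the arrays was 1.29-fold.

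petL, which in tobacco is dispensable for assembly but stabilizes the complex, had 2911 in dehydration polysomal and 6206 in dehydration non-polysomal RNA, and 4433 in non-stress polysomal and 6571 in non-stress non-polysomal RNA. The non-polysomal signals were nearly level, and the lowest value was that of dehydration polysomal RNA. Its log2 ratio was -1.09 under dehydration, 2.13-fold lower in polysomal RNA, and -0.57 without stress. Both were negative under all scalings tried, between -1.21 and -0.84 under dehydration and between -0.87 and -0.09 without stress.

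petN, also needed for accumulation of the complex in tobacco, had 3473 in dehydration polysomal and 3096 in dehydration non-polysomal RNA, and 2861 in non-stress polysomal and 5234 in non-stress non-polysomal RNA. The non-stress non-polysomal array stood above the next by 0.59 on the log2 scale, and the other arrays lay within 0.28 of each other. The log2 ratio was 0.17 under dehydration, or -0.01 under quantile normalization, and -0.87 without stress, between -1.11 and -0.39 over the scalings tried.

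rbcL had 1967 in dehydration polysomal and 1736 in dehydration non-polysomal RNA, and 1503 in non-stress polysomal and 1655 in non-stress non-polysomal RNA. Both dehydration signals lay above both non-stress ones, but the whole span was 1.31-fold and every step between neighbouring arrays was at most 0.18 on the log2 scale. Its log2 ratio was 0.18 under dehydration and -0.14 without stress, and the second turned positive under median and hybridization control scaling. Signals of different probe sets cannot be compared as levels, so the lower signal of rbcL is no measure of its abundance against the pet genes.

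Under dehydration 3 of the 7 log2 ratios were above 0 and 4 below, with a median of -0.10 against -0.17 over the other 62 plastid genes and -0.04 over all 11373 measured probe sets. petL alone passed 2-fold, on the low side, where 11.6% of all measured probe sets did so on the low and 9.06% on the high side. It fell short of 2-fold under median (-0.84), hybridization control (-0.99) and plastid gene scaling (-0.98). Over the scalings 2 to 5 of the 7 were below 0. As reported, 64.5% of the other plastid genes and 52.1% of all measured probe sets were below 0. petL ranked 5 from the lowest of the 69 plastid genes and petA 12 from the highest.

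Without stress 6 of the 7 were below 0, or 4 under median and 3 under hybridization control scaling, with a median of -0.41 against -0.33 over the other plastid genes and -0.06 over all measured probe sets. Of the other plastid genes 72.6% were below 0 too, and of all measured probe sets 53.2%. petD alone passed 2-fold, on the low side, where the shares of all measured probe sets were 11.9% on the low and 8.56% on the high side. Under median and hybridization control scaling petD fell short of 2-fold (-0.88 and -0.77) and petA passed it on the high side (1.23 and 1.34). With 1 gene in 7 in either condition, the members' count is near the background and is no result about them. petD ranked 5 and petN 9 from the lowest of the plastid genes, and petA 9 from the highest.

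**Figure D2:**
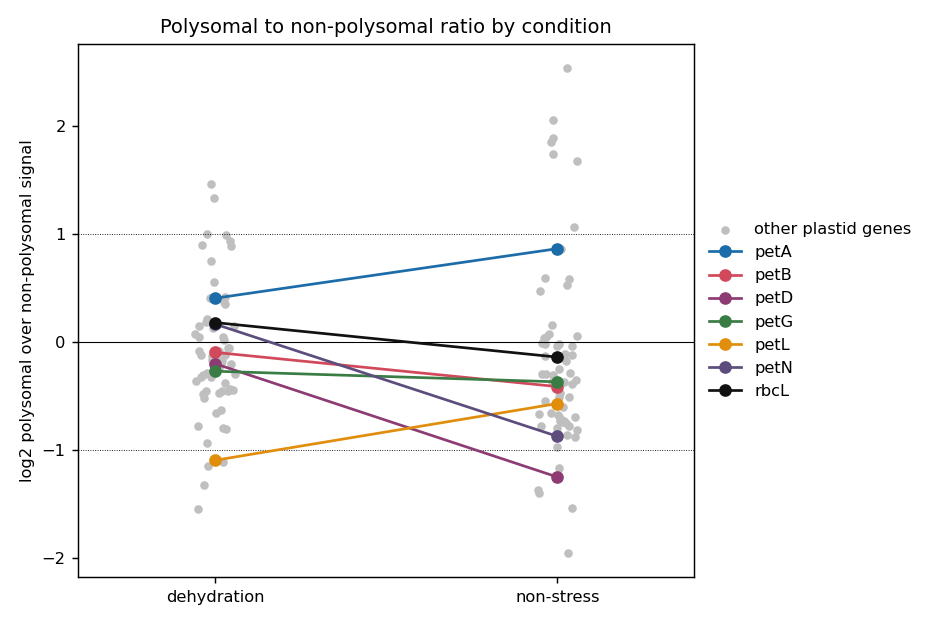
Log2 ratio of polysomal to non-polysomal signal in dehydration and non-stress RNA, with the 7 genes coloured and joined between conditions and the other 62 plastid genes in grey (horizontal scatter only separates the points). Dotted lines mark 2-fold. The 7 genes span 1.50 under dehydration and 2.11 without stress, and the other 62 span 3.01 and 4.48.

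Differences between members within an array do not depend on the factor by which an array is scaled, but quantile normalization, which applies no single factor, can move them. petA exceeded petD in polysomal ratio by 0.61 on the log2 scale under dehydration and by 2.11, or 4.32-fold, without stress. petA exceeded petL by 1.50 under dehydration and by 1.43 without stress, a distance that, unlike that of petA and petD, was nearly the same in both conditions. petB and petD, whose products together form the quinol-binding core, differed by 0.105 under dehydration and by 0.84 without stress, or by 0.33 and 1.17 under quantile normalization.

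The change of ratio, dehydration minus non-stress, asked whether the polysomal ratio of a transcript, relative to the bulk of the transcripts, differed between conditions. A shift of the bulk itself between the fractions is removed by the trimmed mean scaling and cannot be seen in it. The log2 ratio of petD was 1.05 higher under dehydration and that of petN 1.04 higher, both at least 2-fold and both larger than the yardstick SD of 0.598. Of all measured probe sets 2.8% passed 2-fold on the high side and 1.62% on the low side. Among the 69 plastid genes petD ranked 3 and petN 4 from the highest, and only rps14 (1.34) and rpoB (1.23), named after their values were seen, lay above them. The values of petD and petN lay just over the 2-fold line and fell below it under median scaling (0.94 and 0.92) and hybridization control scaling (0.67 and 0.66), staying positive under all scalings tried. Their mean signals were 3330 and 3666. The SD of the change was 0.652 over the 40 other plastid genes with a mean signal of at most 10000. Over the 22 brighter ones it was 0.214.

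rbcL (0.32), petB (0.32) and petG (0.10) had small positive changes, which turned negative under hybridization control scaling for all of these and under median scaling for petG. petA (-0.46) and petL (-0.52) had a lower ratio under dehydration under all scalings tried. Both values were smaller in size than the yardstick SD but exceeded it under hybridization control scaling (-0.83 for petA and -0.90 for petL) and, for petL, under median scaling (-0.64). petL ranked 5 and petA 7 from the lowest of the plastid genes. The median over the 7 was 0.32, against 0.08 over the other plastid genes and 0.01 over all measured probe sets.

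The polysomal and non-polysomal signals contributed differently to these changes. In polysomal RNA petD was 0.76 higher under dehydration on the log2 scale and petL 0.61 lower, both past the yardstick SD of 0.435, while rbcL was at 0.39, petB at 0.29, petN at 0.28, petG at 0.03 and petA at 0.02. Under plastid gene scaling petL, at -0.37, did not pass this SD, while rbcL (0.62), petB (0.52) and petN (0.51) did. The directions of petD, petL, rbcL, petB and petN held under all scalings tried, whereas petG turned negative under hybridization control scaling and petA under that and quantile normalization. None passed 2-fold, where 6.36% of all measured probe sets did so on the high and 5.58% on the low side.

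In non-polysomal RNA petN was 0.76 lower under dehydration and petA 0.48 higher, in the same direction under all scalings tried. petN ranked 2 from the lowest of the 69 plastid genes and petA 3 from the highest. The other members lay between -0.29 (petD) and 0.07 (rbcL), and each of them changed sign under at least 1 scaling. Again none passed 2-fold, where the shares of all measured probe sets were 4.32% on the high and 4.56% on the low side. The dehydration effect of petD was thus larger in size in polysomal RNA and that of petN in non-polysomal RNA, under all scalings tried.

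**Figure D3:**
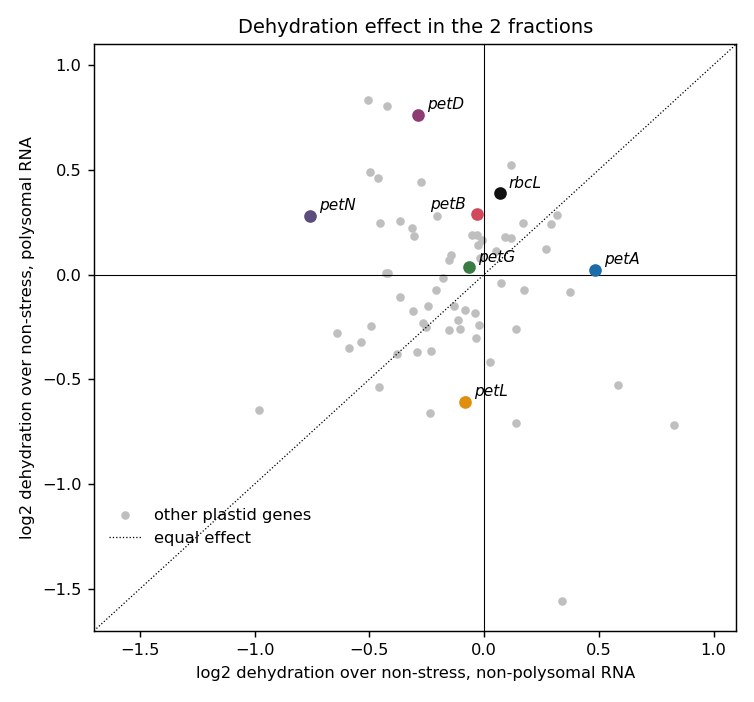
Log2 dehydration over non-stress signal in polysomal RNA (vertical) against non-polysomal RNA (horizontal) for the 7 genes and the other 62 plastid genes (grey), with the dotted line marking an equal effect. petD lies highest of the 7 at 0.76 in polysomal RNA, petN farthest left at -0.76 in non-polysomal RNA and petL lowest at -0.61.

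Several members belong to polycistronic transcription units, so their neighbours on the plastid chromosome were set beside them. petB and petD end the unit that begins with the photosystem II genes psbB, psbT and psbH. Under dehydration the log2 polysomal ratios in the order psbB, psbT, psbH, petB and petD were -0.06, -0.17, -0.05, -0.10 and -0.20. Without stress they were -0.77, -0.31, -0.02, -0.41 and -1.25. Genes of this unit therefore lay within 0.15 of each other under dehydration, or 0.33 under quantile normalization, and were spread over 1.23 without stress. A narrower spread under dehydration was not particular to this unit, but it was less marked over the other plastid genes. Over the 62 plastid genes other than the members, the log2 ratio spanned 3.01 under dehydration and 4.48 without stress. Its SD over these genes was 0.605 under dehydration and 0.889 without stress. The change of ratio was 0.72 for psbB, 0.32 for petB and 1.05 for petD but 0.14 for psbT and -0.04 for psbH.

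petA ends the unit of psaI (a photosystem I subunit), ycf4 (photosystem I assembly) and cemA (an envelope membrane protein). cemA, directly before petA, had 10966 in dehydration polysomal and 8274 in dehydration non-polysomal RNA, and 11632 in non-stress polysomal and 6389 in non-stress non-polysomal RNA. Its log2 ratios, 0.41 under dehydration and 0.86 without stress, differed from those of petA by less than 0.01, or by 0.02 and 0.06 under quantile normalization. ycf4 was at 0.37 under dehydration and 0.16 without stress, and psaI at -0.35 and -0.11, so psaI did not share the ratio of the last pair. accD, the gene before psaI, was at -0.81 and -0.66.

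petL and petG lie next to each other, followed by psaJ (photosystem I), rpl33 and rps18 (ribosomal proteins). petL was 0.82 below petG in log2 polysomal ratio under dehydration and 0.20 below it without stress. psaJ was at -0.63 under dehydration and -0.55 without stress, rpl33 at 0.21 and -0.03, and rps18 at -0.38 and -0.30. None of these neighbours had a change of ratio as low as that of petL, the lowest of them being -0.08.

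petN and rbcL are mostly transcribed without other protein genes. psbM, the next protein gene after petN, had a log2 ratio of -0.47 under dehydration and -0.37 without stress, so that the change of ratio was 1.14 larger for petN. rbcL lies between atpB, for an ATP synthase subunit, and accD, for a subunit of acetyl-CoA carboxylase. Its log2 polysomal ratio exceeded that of atpB by 0.29 under dehydration and by 0.03 without stress, or by 0.15 and -0.37 under quantile normalization, and that of accD by 0.99 and 0.52.

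**Figure D4:**
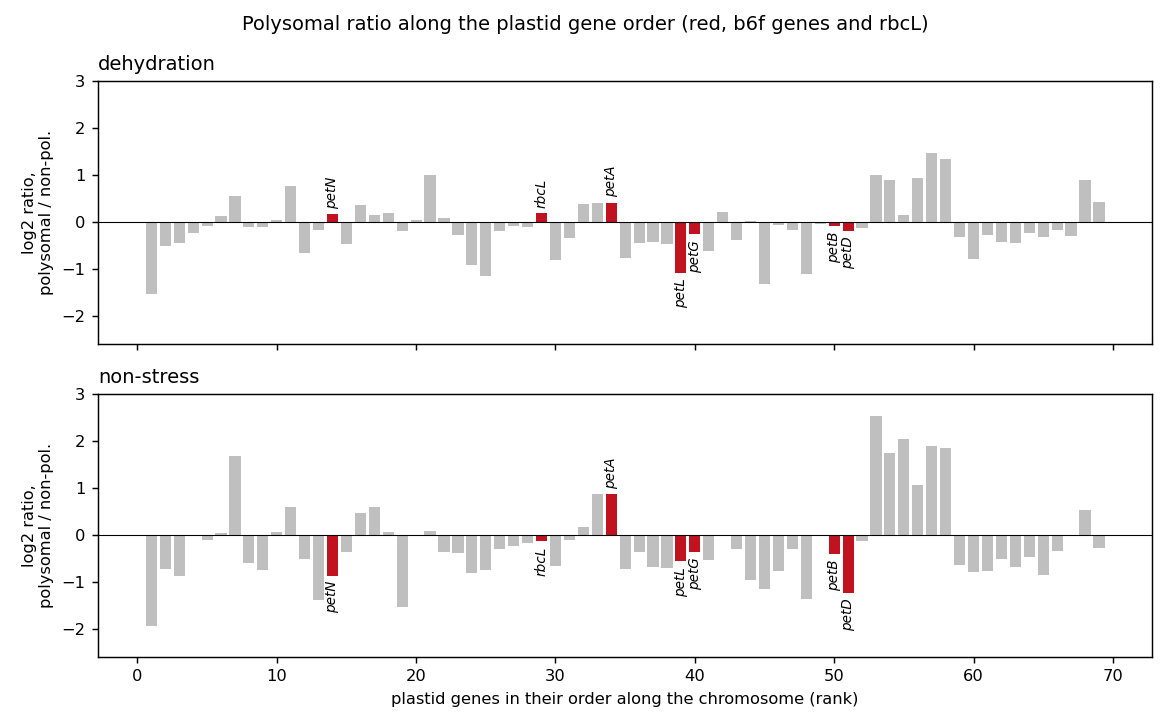
Log2 ratio of polysomal to non-polysomal signal for the 69 plastid genes in their order along the plastid chromosome (ranks, not distances), under dehydration above and non-stress below, with the 7 genes in red. petA and the gene before it, cemA, stand together at 0.86 without stress, and petD reaches -1.25 beside petB at -0.41.

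petB and petA were among the bright probe sets, with mean signals of 19916 and 11619, while the highest signal on an array lay between 24866 and 30647. Of the other plastid genes, the 22 with a mean signal above 10000 had an SD of log2 ratio of 0.442 under dehydration and 0.466 without stress, against 0.649 and 1.02 for the 40 dimmer ones. The part of brightness in the small differences of petB, or in the larger changes of ratio of the dimmer petD and petN, was not tested. Control probe sets for RNA integrity also moved with the arrays. The 3′ to 5′ signal ratio of the actin control was 9.67 in dehydration polysomal, 5.21 in dehydration non-polysomal, 3.04 in non-stress polysomal and 3.08 in non-stress non-polysomal RNA. That of GAPDH was 1.08, 1.83, 1.22 and 2.24 on the same arrays, and that of ubiquitin lay between 1.60 and 1.98. The 5S ribosomal RNA control had 1765 in dehydration polysomal and 2966 in dehydration non-polysomal RNA, and 845.8 in non-stress polysomal and 4383 in non-stress non-polysomal RNA, while the 25S control was between 52.2 and 86.6. The part of these in the members' values was not tested.

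The measured genes most like each member were found by the root mean square difference of log2 signal over the 4 arrays after each gene was centred on its own mean, among 5979 named loci. Those nearest to petA were the tubulin gene TUB9 (0.02), AT1G50920 (0.02) and AT5G23250 (0.04), and the nearest plastid gene was cemA (0.05). petD was nearest to AT5G49555 (0.02), to rpoB (0.06), a plastid gene for a subunit of the plastid RNA polymerase, and to AT1G72190 (0.06). rpoB had 5283 in dehydration polysomal and 5935 in dehydration non-polysomal RNA, and 3024 in non-stress polysomal and 7952 in non-stress non-polysomal RNA, with the non-stress polysomal array lowest as for petD. The measure rests on 4 arrays and singles out no plastid gene for petA, since cemA was number 14 in nearness to it.

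petN was nearest to the myosin gene XI-I (0.07), AT3G26730 (0.09) and AT1G68160 (0.09), and its nearest plastid gene was rpl20 (0.13). petL was nearest to AT5G27710 (0.03), AT3G05410 (0.04) and AT4G31250 (0.05), and its nearest plastid gene was rpl32 (0.13). petB was nearest to AT3G54100 (0.03), AT5G17930 (0.03) and PAC (0.03), a nuclear gene required for chloroplast development. petG was nearest to AT1G78800 (0.01), AT1G80180 (0.02) and the plastid ribosomal protein gene rps4 (0.03). rbcL was nearest to AT1G26620 (0.02), AT5G52180 (0.02) and AT1G66900 (0.03). Within the group the closest pair was petB and petG (0.10), and petA was the member farthest from its nearest fellow, rbcL (0.36).

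Nuclear genes for partners of these proteins were listed by locus, and 10 of 37 had a probe set that is named here, all measured. Genes for the Rieske subunit, the Rubisco small subunits and plastocyanin were not analysed here. The median log2 polysomal ratio of the 10 was 0.73 under dehydration and 0.62 without stress, with 7 above and 3 below 0 in either condition. Without stress all 10 were above 0 under median (median 0.99) and hybridization control scaling. In either condition 2 passed 2-fold, both on the high side, a count that was between 1 and 6 over the scalings. Of all measured probe sets 9.06% passed on the high side under dehydration and 8.56% without stress. These shares were 15.6% and 18.4% under median scaling, and 11.6% and 21.9% under hybridization control scaling. The dehydration effect had a median of -0.25 in polysomal RNA, with 2 above and 8 below 0, and of -0.22 in non-polysomal RNA, also with 2 above and 8 below. Under plastid gene scaling the polysomal median was -0.01, with 5 above and 5 below 0. In non-polysomal RNA the counts were 5 and 5 under median scaling (median -0.05) and 7 and 3 under hybridization control scaling (median 0.08).

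PETM (AT2G26500), the nuclear gene for a small b6f subunit, had 11900 in dehydration polysomal and 16252 in dehydration non-polysomal RNA, and 14606 in non-stress polysomal and 17674 in non-stress non-polysomal RNA. Like petG it was lower in both polysomal signals, by a log2 ratio of -0.45 under dehydration and -0.28 without stress, the second turning positive under median (0.09) and hybridization control scaling (0.20). RCA, the gene for Rubisco activase, had 20268 in dehydration polysomal and 21356 in dehydration non-polysomal RNA, and 19238 in non-stress polysomal and 23856 in non-stress non-polysomal RNA, with log2 ratios of -0.08 under dehydration and -0.31 without stress. RCA, a marker of green tissue, was thus bright on every array. EXPA7, an expansin gene of root hairs, had 82.1 to 189.8 and did not pass the filter on dim signals. Of 16 listed tissue markers only these 2 had a probe set that is named here, and their signals cannot be compared as levels.

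Among assembly factors, CCB3, which acts in haem attachment to cytochrome b6, had a log2 polysomal ratio of 1.11 under dehydration and 0.62 without stress, and CCDA, a thylakoid thiol-disulphide carrier needed for b6f assembly, was at 0.66 and 1.01. CRP1 (AT5G42310), whose maize counterpart is needed for petA translation and petD RNA processing, was at 0.93 and 0.82, and BSD2 (AT3G47650), a Rubisco chaperone, at 0.95 and 0.93. CPN60B2, a chaperonin subunit gene, was the only one at least 2-fold apart between conditions, with 795 in dehydration polysomal against 1898 in non-stress polysomal RNA, a log2 difference of -1.26. In polysomal RNA 5.58% of all measured probe sets passed 2-fold on the low side and 6.36% on the high side. None of the 10 had a change of ratio of at least 2-fold, the highest being 0.49 (CCB3) and the lowest -0.48 (CPN60B2). Of all measured probe sets only 2.8% passed on the high and 1.62% on the low side, so this count is near the background.

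The scaling of the arrays sets the zero of every ratio. The median of all measured probe sets moved from its value under trimmed mean scaling by 0.26 under dehydration and 0.37 without stress with median scaling, and by 0.10 and 0.48 with scaling on hybridization controls. For the change of ratio the shift was -0.11 with median scaling, -0.37 with hybridization controls and 0.11 with scaling on the other plastid genes. Relative to the median of all measured probe sets, the log2 ratio under dehydration was 0.45 for petA and -1.05 for petL, that without stress 0.93 for petA, -1.18 for petD and -0.81 for petN, and the change of ratio 1.03 for petD and 1.02 for petN.

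The share of measured probe sets on the high side among those at least 2-fold apart was 43.8% under dehydration, or 69.5%, 54.9% and 55.3% with median, hybridization control and plastid gene scaling. Without stress it was 41.9%, or 76.1% with median and 81.8% with hybridization control scaling. For the change of ratio it was 63.3%, or 41.5%, 53.3%, 10.6% and 79.6% with median, quantile, hybridization control and plastid gene scaling. For the dehydration effect in polysomal RNA it was 53.2%, or 60.5%, 54.3%, 46% and 76.5% with median, quantile, hybridization control and plastid gene scaling. In non-polysomal RNA it was 48.6%, or 68.9%, 51.4%, 81.8% and 63.0% with the same scalings.

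**Figure D5:**
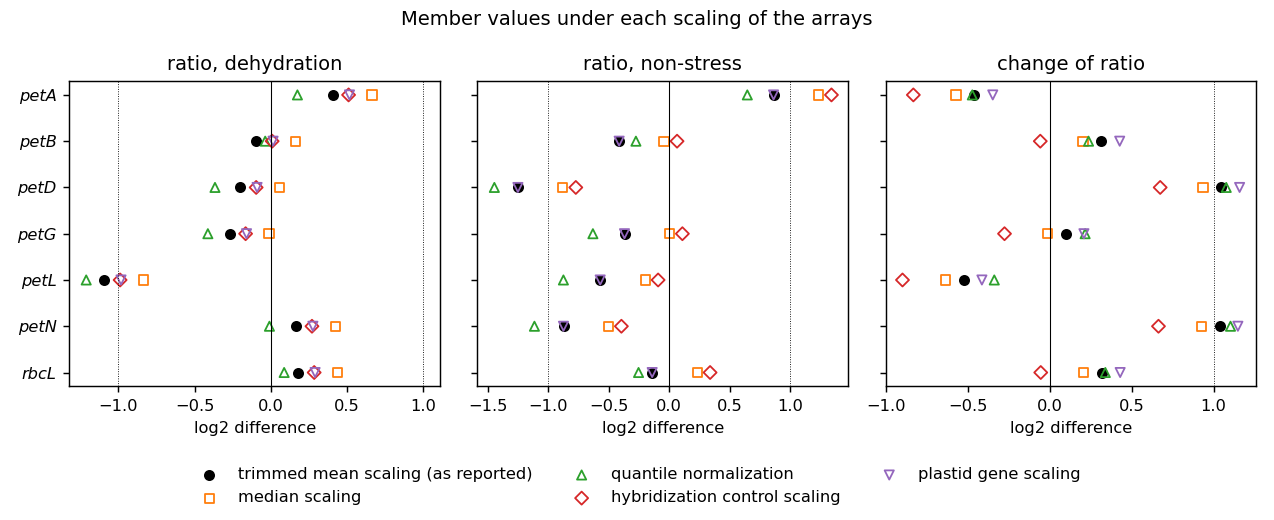
Log2 values of the 7 genes under 5 scalings of the arrays, for the polysomal ratio under dehydration, the ratio without stress and the change of ratio (dehydration minus non-stress), with dotted lines at 2-fold. petA, petD, petL and petN keep their side of 0 without stress and in the change of ratio, while petB, petG and rbcL cross 0 under at least 1 scaling in either panel.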

How the data were processed

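Signal intensities on a linear scale were deposited by the authors for 22810 ATH1 probe sets on 4 arrays, 1 per group. The deposited intensities share a 2% trimmed mean of 500.04 on each array, and no label or header names the summary software. Signals were brought to an equal trimmed mean, raised to a lower limit of 69.9 (the median over arrays of percentile 25) and put on the log2 scale. Measured probe sets are those with a mean log2 signal at or above 7.74, the median without 64 controls. By the platform annotation, not a recent one, 13513 probe sets have 1 symbol, and 13436 of these matched the TAIR10.1 gene table, used for names and gene order only. In the search for the genes most like each member, each locus was given by its brightest measured probe set.

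The log2 signals were subtracted for 5 comparisons, which share arrays. No test was possible with 1 array per group. The members and gene lists were chosen with earlier results of these data known. Transcription units, nuclear partners and tissue markers were listed from general knowledge. The genes named are the members, their neighbours, the 3 nearest loci by pattern, the nearest plastid gene of some members, and the listed partners and tissue markers. In the change of ratio rps14 and rpoB were named after their values were seen. A planned description of coding length was not made, since no protein sequences were used here. Python 3.11.15, numpy 2.4.6 and pandas 2.3.3 were used, and the calculations were tested on simulated arrays. Other scalings, lower limits and filters were tried as alternatives.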

Additional observations from a re-analysis of the deposited data

Results flagged for a closer look

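Some members moved in opposite directions in the conditions or fractions compared. Each direction rests on 1 array per group, and none of these differences was tested. The polysomal ratio of petN was 0.17 on the log2 scale under dehydration and -0.87 without stress, a difference of 1.04, which was also that between its dehydration effect in polysomal (0.28) and non-polysomal RNA (-0.76). For petD the dehydration effect was 0.76 in polysomal and -0.29 in non-polysomal RNA, a difference of 1.05. The polysomal ratio of rbcL was 0.18 under dehydration and -0.14 without stress, a difference of 0.32. The dehydration effect of petB was 0.29 in polysomal and -0.03 in non-polysomal RNA, a difference of 0.32, and that of petG 0.03 and -0.06, a difference of 0.10. Most of these opposite directions depend on the scaling. The non-polysomal effect of petB was positive under all 4 other scalings, and that of petD under hybridization control scaling (0.02). The ratio of rbcL without stress was positive under median and hybridization control scaling, and that of petN under dehydration was negative under quantile normalization (-0.01). The effect of petG was negative in polysomal RNA under hybridization control scaling and positive in non-polysomal RNA under median, hybridization control and plastid gene scaling. Only the opposite dehydration effects of petN in the fractions kept their directions under all scalings tried. The values of rbcL, petB and petG were smaller than the SD between probe sets of the same gene.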

How the results depend on the processing

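No paired analysis was possible because each group holds 1 array. None of the 35 member values moved by as much as the SD between probe sets of the same gene under any alternative, and lower limits and the choice of probe set left them in place, since every member lies far above the lower limit and has 1 probe set. Counts of members at least 2-fold apart were less firm. The 1 under dehydration (petL) became 0 under median, hybridization control and plastid gene scaling, the 1 without stress became 2 under quantile normalization, and the 2 for the change of ratio (petD and petN) became 0 under median and hybridization control scaling. Without stress the 1 called was petA, on the high side, under median and hybridization control scaling. Among all measured probe sets, 502 changes of ratio became 972 under hybridization control scaling. With no filter on dim probe sets the counts were 3731 for the ratio without stress, 1219 for the change of ratio and 1629 for dehydration in non-polysomal RNA, against 2321, 502 and 1010. They are counts out of 22746 probe sets, against 11373. The shares without the filter were 4.84% high and 11.6% low for the ratio without stress, against 8.56% and 11.9%. For the change of ratio they were 3.79% and 1.57%, against 2.8% and 1.62%. For dehydration in non-polysomal RNA they were 2.69% and 4.48%, against 4.32% and 4.56%. With the filter at percentile 75 only 5687 probe sets were left. The counts were 1244 for the ratio under dehydration, 1229 for that without stress, 181 for the change of ratio, and 714 and 543 for dehydration in polysomal and non-polysomal RNA.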
